A study of Homo sapiens with 6 samples.

Results

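The BMP pathway was followed here through 10 genes, namely the ligands BMP2 and BMP4, the antagonists NOG and GREM1, the receptors BMPR1A and BMPR2, the inhibitory SMAD6 and the target genes ID1, ID2 and ID3. They were taken by symbol from the 60651 gene rows of the count tables, and all 10 had a row. RNA came from MDA-MB-231, an established human line from a breast cancer of the triple-negative kind, with wild-type genotype per the labels. The cells stood 24 h in the solvent DMSO alone, in AF-EAE at 75 µg/ml or in AF-EAE at 150 µg/ml. AF-EAE is made from the plant Antenoron filiforme with ethyl acetate, and what it contains is not stated in the labels. Each of the 3 groups had 2 libraries, which gives 6 in all, from a single cell line, and the gene counts per library ran from 15621103 to 17113722. The labels call the libraries biological replicates without saying that the cultures were separate. All p-values therefore measure spread among these libraries, which may be technical. The question put by the design is how expression at each concentration differs from that in DMSO, and the series title names proliferation.

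Bone morphogenetic proteins are secreted ligands that bring type I and type II serine/threonine kinase receptors together. The receptors phosphorylate SMAD1, SMAD5 and SMAD9, which enter the nucleus with SMAD4 and activate genes that include ID1, ID2, ID3 and SMAD6. Noggin and gremlin bind the ligands outside the cell, SMAD6 limits the signal inside it, and ID proteins bind E proteins and keep them from DNA. In breast cancer cells the pathway has been linked with both growth restraint and invasion, and ID1 and ID3 with proliferation and metastasis.

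Promoter sequence is shown for the genes that were lower at 150 µg/ml and whose window lay almost outside exons. The windows are the 250 bases before a RefSeq transcription start on GRCh38.p14, and 8 of the 10 genes had a window (not BMP2 and NOG). BMP4 had 3 windows and GREM1 had 2. The BMP4 window shown is chr14:53955051-53955300 on the minus strand and the BMPR2 window is chr2:202376077-202376326 on the plus strand. This BMP4 window lies inside the annotated gene (chr14:53949736-53958761), before an internal start. The ID1 window is chr20:31605039-31605288 and the SMAD6 window is chr15:66701986-66702235, both on the plus strand. These 4 windows held 0, 0, 6 and 8 bases of GENCODE 29 exon in the order BMP4, BMPR2, ID1 and SMAD6. The other windows held 60 to 250 exonic bases and are not printed. Each sequence below is from RefSeq, runs 5′ to 3′ along the gene's strand and ends at the base before the start, and capitals mark every match to the 5 searched motifs.
BMP4: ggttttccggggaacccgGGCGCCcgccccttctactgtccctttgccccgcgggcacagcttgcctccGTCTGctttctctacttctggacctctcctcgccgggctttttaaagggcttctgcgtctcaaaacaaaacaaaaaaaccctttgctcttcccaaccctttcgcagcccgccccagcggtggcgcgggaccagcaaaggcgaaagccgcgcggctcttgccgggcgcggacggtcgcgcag
BMPR2: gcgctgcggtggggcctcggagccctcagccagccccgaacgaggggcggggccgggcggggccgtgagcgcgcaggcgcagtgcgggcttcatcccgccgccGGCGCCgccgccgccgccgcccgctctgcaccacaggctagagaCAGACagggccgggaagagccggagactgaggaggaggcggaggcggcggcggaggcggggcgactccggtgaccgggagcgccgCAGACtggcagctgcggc
ID1: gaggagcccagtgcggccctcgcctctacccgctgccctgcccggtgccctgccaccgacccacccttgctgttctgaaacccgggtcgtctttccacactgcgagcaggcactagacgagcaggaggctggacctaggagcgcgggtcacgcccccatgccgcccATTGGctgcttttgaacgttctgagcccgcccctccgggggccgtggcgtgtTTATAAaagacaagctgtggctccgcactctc
SMAD6: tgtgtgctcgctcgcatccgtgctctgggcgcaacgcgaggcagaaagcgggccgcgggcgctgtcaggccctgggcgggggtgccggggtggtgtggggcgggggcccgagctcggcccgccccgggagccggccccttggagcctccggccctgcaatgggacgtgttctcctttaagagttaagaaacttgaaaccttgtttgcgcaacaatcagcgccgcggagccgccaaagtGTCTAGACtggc

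The motifs were searched on both strands and are the palindromic SMAD element GTCTAGAC, the GC-rich letters GGCGCC that SMAD1 and SMAD5 can bind, the short SMAD box CAGAC, the CCAAT box and the letters TATAA. On the opposite strand the SMAD box reads as GTCTG, the CCAAT box as ATTGG and TATAA as TTATA. GTCTAGAC stood in 0.182% of the 35116 RefSeq windows of the same length, GGCGCC in 16.4%, CAGAC in 38%, CCAAT in 32% and TATAA in 18.9%. The SMAD6 window held GTCTAGAC with its first base at position -12 from the start. The end of this match lies in the 8 exonic bases that close the window, since annotated SMAD6 starts at chr15:66702228. The BMP4 window shown held GGCGCC at -232 and the SMAD box at -181, and the BMPR2 window held GGCGCC at -147 and the SMAD box at -103 and -18. Of the BMP4 windows not printed, chr14:53953396-53953645 held a SMAD box at -46 and TATAA at -28, and chr14:53954489-53954738 held no match. The ID1 window held a CCAAT box at -84 and overlapping TATAA matches at -32 and -31. A match describes letters in the window and was not tested as a binding site.

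The listed genes were lower or not called in AF-EAE, and none was called higher. Expression of 8 of the 10 was high enough for a test. A gene was called where the edgeR quasi-likelihood test, adjusted over all 15589 tested genes by Benjamini-Hochberg, gave a p under 0.05. At 75 µg/ml 2 of the 8, BMP4 and NOG, were lower than in DMSO and 6 were not called. Of all tested genes 19.4% were lower and 19.2% higher at 75 µg/ml. At 150 µg/ml 6 of the 8 were lower than in DMSO, namely BMP4, NOG, BMPR2, SMAD6, ID1 and ID3, where 25.7% of all tested genes were lower and 25.8% higher. Between the concentrations 7 of the 8 were lower at 150 than at 75 µg/ml, all but ID2, where 12.5% of all tested genes were lower and 9.51% higher. The median log2 fold change of the 8 was -0.14 at 75 µg/ml and -1.08 at 150 µg/ml, against 0.01 and 0.03 over all tested genes, and -0.70 between the concentrations, against 0.00. The listed genes were chosen with earlier results of these data known, so these contrasts with all genes cannot show an excess, and none was tested. Both comparisons with DMSO share the same DMSO libraries. The count of 0 higher came from edgeR, and DESeq2 and limma-voom also gave 0 in each comparison. With total counts in place of TMM, 1 listed gene was called higher at 75 µg/ml (BMPR1A) and 1 at 150 µg/ml (ID2). At an unadjusted p under 0.05 edgeR had 0 higher at 75 µg/ml, 1 at 150 µg/ml (ID2) and 0 between the concentrations. Scaling by total counts in place of TMM moved the median of all genes to 0.14 at 75 µg/ml and 0.22 at 150 µg/ml. The all-gene calls under it were 1816 lower and 4501 higher at 75 µg/ml, against 3026 lower and 2989 higher with TMM.

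**Figure D1:**
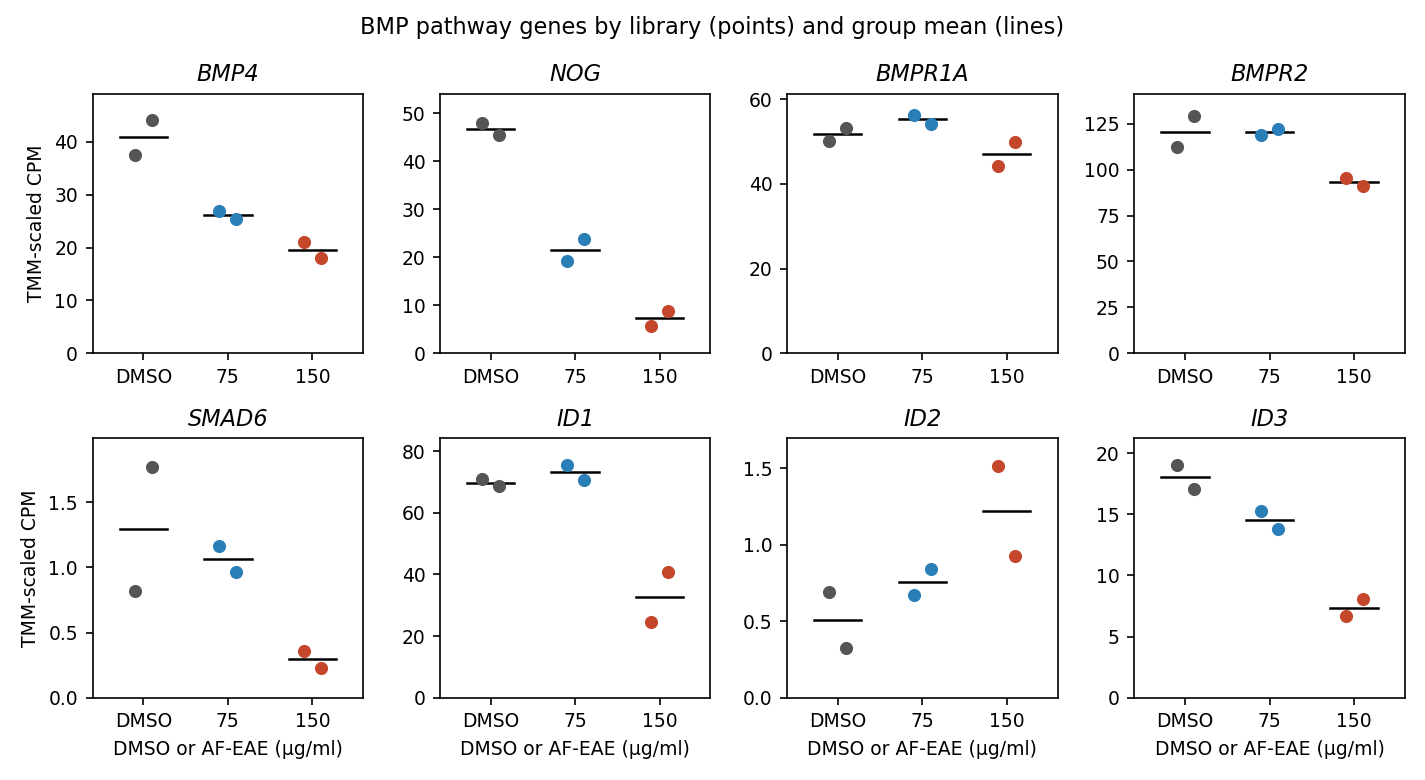
Level of the 8 tested genes in TMM-scaled CPM (y axis from 0) in DMSO and at 75 and 150 µg/ml AF-EAE (x axis), with 1 point per library and a line at the group mean. NOG and BMP4 step down at each concentration, ID1 overlaps DMSO at 75 µg/ml and lies lower at 150 µg/ml, and ID2 stays under 2 CPM throughout.

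BMP4 was the one of the listed ligands that could be tested, and its RNA fell at both concentrations. BMP4 (ENSG00000125378, GRCh38 chr14:53949736-53958761, minus strand) encodes a ligand that signals through BMPR1A with BMPR2. CPM is the count scaled to a common library total with TMM factors. BMP4 stood at 37.5 and 44.2 CPM in DMSO, 27.0 and 25.3 at 75 µg/ml, then 21.0 and 18.1 at 150 µg/ml. The groups did not overlap, and every 150 µg/ml library lay below every 75 µg/ml library. The log2 fold change was -0.64 (SE 0.105, adjusted p = 1.07e-04) at 75 µg/ml and -1.06 (SE 0.108, adjusted p = 2.57e-07) at 150 µg/ml, a 2.09-fold lower level. The difference between 150 and 75 µg/ml was -0.42 (SE 0.111, adjusted p = 0.0122). That last call was lost without 75 µg/ml replicate 1 (-0.37, adjusted p = 0.0860) and without 150 µg/ml replicate 2 (-0.31, adjusted p = 0.134). In bulk RNA fewer expressing cells and less RNA per cell cannot be told apart, here and for every gene below.

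BMP2 (chr20:6767664-6780280, plus strand), a close relative of BMP4, had 1 read in all 6 libraries together, in 150 µg/ml replicate 1. GREM1 (chr15:32717974-32745107, plus strand), the gene for gremlin, had 0 reads in every library. The limit that 3 counts set in a library was 0.174 to 0.196 CPM, and counting error alone is covered by it. Neither gene was detectable above that limit in any group, so no fold change is given.

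NOG had the lowest log2 fold change against DMSO among the listed genes at each concentration, but SMAD6 was not clearly separated from it. The SMAD6 interval was -1.27 to 0.71 at 75 µg/ml and -3.30 to -0.89 at 150 µg/ml. These intervals contain the NOG values of -1.12 and -2.68. Between 150 and 75 µg/ml SMAD6, with few reads, had the larger fall (-1.81 against -1.56 for NOG). NOG (ENSG00000183691, chr17:56593699-56595590, plus strand, 1 exon) encodes noggin, a secreted antagonist that binds BMP2 and BMP4 and blocks their contact with receptors. Its level was 48.0 and 45.4 CPM in DMSO, 19.3 and 23.8 at 75 µg/ml, then 5.68 and 8.88 at 150 µg/ml. In raw reads these were 762 and 694, then 315 and 396, then 94 and 153. No library of one group reached another group's range. NOG averaged 21.5 ± 3.21 CPM at 75 µg/ml and 46.7 ± 1.84 CPM in DMSO (SD, n = 2 each), 2.17-fold lower (log2 fold change -1.12, SE 0.132, adjusted p = 3.46e-06). It averaged 7.28 ± 2.26 CPM at 150 µg/ml, 6.39-fold lower than in DMSO (-2.68, SE 0.152, adjusted p = 1.47e-10) and 2.95-fold lower than at 75 µg/ml (-1.56, SE 0.160, adjusted p = 2.71e-06). All 3 calls held in each of the 14 alternative analyses, with log2 fold changes of -3.04 to -2.40 at 150 µg/ml against DMSO.

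The type I receptor BMPR1A was not called against DMSO at either concentration, and the type II receptor BMPR2 was lower at 150 µg/ml. BMPR1A (chr10:86756601-86932838, plus strand) encodes a kinase that phosphorylates the receptor SMADs. It had 50.2 and 53.2 CPM in DMSO, 56.2 and 54.2 at 75 µg/ml, then 44.2 and 49.9 at 150 µg/ml. The 75 µg/ml libraries were the highest and the 150 µg/ml libraries the lowest, by thin margins. BMPR1A had 54.2 CPM in the lower 75 µg/ml library against 53.2 in the higher DMSO library. At 150 µg/ml it had 49.9 in the higher library against 50.2 in the lower DMSO library. Its log2 fold change was 0.09 at 75 µg/ml (95% interval -0.07 to 0.26, adjusted p = 0.370) and -0.14 at 150 µg/ml (-0.30 to 0.03, adjusted p = 0.168). The difference of -0.23 between 150 and 75 µg/ml (SE 0.079, adjusted p = 0.0451) was lost with total counts (-0.17, adjusted p = 0.138), with DESeq2 (-0.23, adjusted p = 0.0871), and without 75 µg/ml replicate 1 (adjusted p = 0.242), 75 µg/ml replicate 2 (0.0997) or 150 µg/ml replicate 1 (0.388). Total counts also turned the 150 µg/ml value to 0.05 and called the 75 µg/ml value higher (0.22, adjusted p = 0.0318). Processed pseudogenes resemble BMPR1A, and the labels do not say how shared reads were counted, so its level is uncertain.

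BMPR2 (chr2:202376936-202567751, plus strand) encodes the type II receptor, which activates the type I receptor. Its level was 112 and 129 CPM in DMSO, 119 and 122 at 75 µg/ml, then 95.7 and 91.3 at 150 µg/ml. The 75 µg/ml libraries lay between the DMSO libraries, and the 150 µg/ml libraries lay below all others. The log2 fold change was -0.00 at 75 µg/ml (95% interval -0.14 to 0.14, adjusted p = 0.985). At 150 µg/ml it was -0.37 (SE 0.066, adjusted p = 1.54e-04), and total counts gave -0.18 with the call kept. Between 150 and 75 µg/ml it was also -0.37 (SE 0.066, adjusted p = 6.76e-04).

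SMAD6, at about 1 CPM, was lower at 150 µg/ml. SMAD6 (chr15:66702228-66782848, plus strand) encodes an inhibitory SMAD that is itself a BMP target and closes a feedback loop. It had 13 and 27 reads in DMSO, 19 and 16 at 75 µg/ml, then 6 and 4 at 150 µg/ml, or 0.820 and 1.77, 1.16 and 0.961, and 0.363 and 0.232 CPM in the same order. The DMSO libraries spanned both 75 µg/ml libraries, and both 150 µg/ml libraries lay below the rest. The log2 fold change was -0.28 at 75 µg/ml (95% interval -1.27 to 0.71, adjusted p = 0.677) and -2.09 at 150 µg/ml (SE 0.571, adjusted p = 0.00528). The 150 µg/ml call was lost without DMSO replicate 2 (-1.45, adjusted p = 0.129) and without 150 µg/ml replicate 2 (-1.81, adjusted p = 0.0611). Between 150 and 75 µg/ml the difference was -1.81 (SE 0.582, adjusted p = 0.0335), and leaving out any library of these groups ended that call (adjusted p = 0.0775 to 0.195).

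ID1 and ID3 fell at 150 µg/ml, and neither was called at 75 µg/ml. ID1 (chr20:31605283-31606515, plus strand) encodes an inhibitor of DNA binding and is among the most direct targets of BMP receptor signalling. It had 70.8 and 68.7 CPM in DMSO, 75.4 and 70.7 at 75 µg/ml, then 24.7 and 40.6 at 150 µg/ml. The DMSO and 75 µg/ml libraries overlapped, and both 150 µg/ml libraries lay far below them with a wide gap between themselves. The log2 fold change was 0.07 at 75 µg/ml (95% interval -0.20 to 0.33, adjusted p = 0.719) and -1.09 at 150 µg/ml (SE 0.136, adjusted p = 3.09e-06), 2.13-fold lower. Between 150 and 75 µg/ml the difference was -1.16 (SE 0.135, adjusted p = 1.08e-05). Across the 14 alternatives the 150 µg/ml value against DMSO ran from -1.50 to -0.78 and stayed called.

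ID3 (chr1:23557918-23559794, minus strand) encodes a related inhibitor that pairs with the same E proteins. Its level was 19.0 and 17.1 CPM in DMSO, 15.3 and 13.8 at 75 µg/ml, then 6.65 and 8.07 at 150 µg/ml. The groups did not overlap and followed the concentration downward. At 75 µg/ml the log2 fold change was -0.31 (95% interval -0.59 to -0.04, adjusted p = 0.0695), which missed the threshold. At 150 µg/ml it was -1.29 (SE 0.142, adjusted p = 6.32e-07), 2.45-fold lower, and between 150 and 75 µg/ml it was -0.98 (SE 0.144, adjusted p = 1.05e-04).

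ID2 was not called in any comparison, and its log2 fold changes were above 0. ID2 (chr2:8678845-8684453, plus strand) had 11 and 5 reads in DMSO, 11 and 14 at 75 µg/ml, then 25 and 16 at 150 µg/ml. In CPM these were 0.693 and 0.327, 0.672 and 0.841, and 1.51 and 0.929. The DMSO and 75 µg/ml libraries overlapped, and the 150 µg/ml libraries were the highest. The log2 fold change was 0.56 at 75 µg/ml (95% interval -0.62 to 1.73, adjusted p = 0.467) and 1.23 at 150 µg/ml (0.14 to 2.33, adjusted p = 0.0569), and between 150 and 75 µg/ml it was 0.68 (-0.34 to 1.70, adjusted p = 0.362). Total counts took the 150 µg/ml value to 1.42 and past the threshold (adjusted p = 0.0280). The 150 µg/ml interval lay above 0 (unadjusted p = 0.0299), and the call was missed after adjustment over all genes. An antisense gene, ID2-AS1, covers 1.72% of the exonic bases of ID2, and reads of the pair are not separated with certainty.

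**Figure D2:**
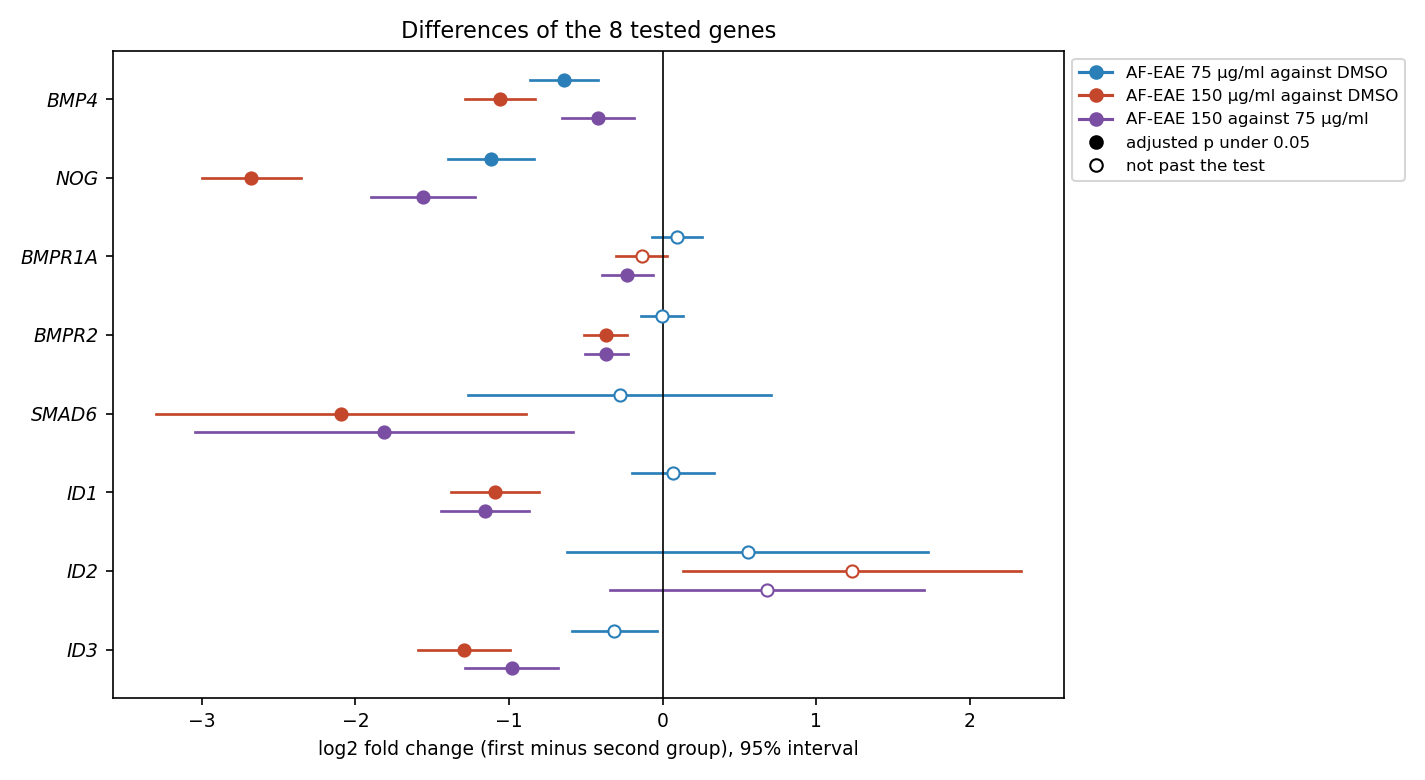
Log2 fold changes with 95% intervals (x axis) for the 8 tested genes (rows) at 75 µg/ml against DMSO, 150 µg/ml against DMSO and 150 against 75 µg/ml, with filled points past an adjusted p of 0.05. NOG lies farthest below 0 at -2.68, BMPR1A and BMPR2 lie within 0.37 of 0, and the intervals of SMAD6 and ID2 are the widest.

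Per kilobase of annotated exon, the order of the levels changed with the concentration. In DMSO ID1 led with 56.6 CPM per kilobase, followed by NOG with 24.7, BMP4 with 13.3, BMPR2 and ID3 with 10.1 each, BMPR1A with 4.53, ID2 with 0.231 and SMAD6 with 0.151. The library values of BMPR2 and ID3 overlapped, as did those of ID2 and SMAD6, and the other neighbours were separate. At 75 µg/ml ID1 stood at 59.3, NOG at 11.4, BMPR2 at 10.1, BMP4 at 8.49, ID3 at 8.10, BMPR1A at 4.84, ID2 at 0.343 and SMAD6 at 0.124 CPM per kilobase. There NOG and BMPR2 overlapped, and so did BMP4 and ID3. At 150 µg/ml ID1 kept the first place with 26.5, then came BMPR2 with 7.86, BMP4 with 6.35, BMPR1A with 4.13, ID3 with 4.09, NOG with 3.85, ID2 with 0.553 and SMAD6 with 0.0347. BMPR1A, ID3 and NOG overlapped at 150 µg/ml. In DMSO every NOG library lay above every library of BMPR2 and BMP4 per kilobase, and at 150 µg/ml every one lay below them. Lengths are the union of annotated exons, and the longest transcript gave BMP4 21.3 and ID3 14.4 CPM per kilobase in DMSO. The union is 3082 bases for BMP4 and 1797 for ID3, against 1917 and 1251 for the longest transcript. The places of BMP4 and ID3, and their overlaps with neighbours, therefore hold for the union only and can change with the length chosen. Orders by the longest transcript were not made at 75 and 150 µg/ml.

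**Figure D3:**
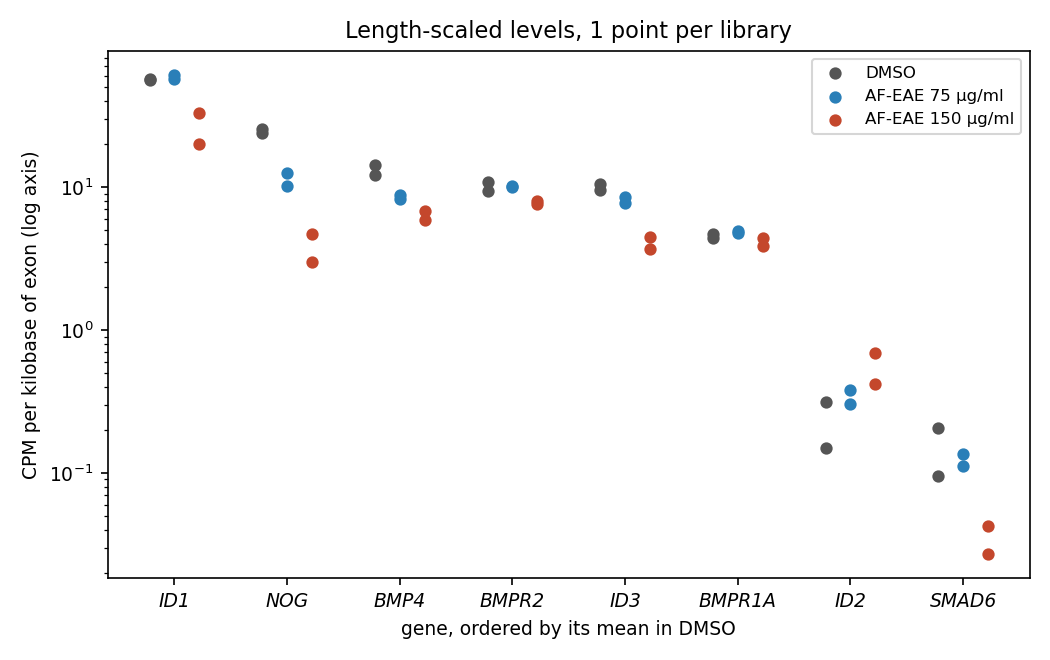
Level per kilobase of exon (log axis) of the 8 tested genes, ordered along the x axis by their mean in DMSO, with 1 point per library for DMSO, 75 µg/ml and 150 µg/ml AF-EAE. ID1 is on top in each group, NOG lies at 24.7 in DMSO, 11.4 at 75 µg/ml and 3.85 CPM per kilobase at 150 µg/ml, and SMAD6 and ID2 lie under 1.

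Calls in the wider pathway went in both directions. A list of 61 further pathway genes was followed, and 34 of them could be tested. At 75 µg/ml 13 were lower than in DMSO, 6 were higher and 15 were not called, and at 150 µg/ml 14 were lower, 7 higher and 13 not called. Between 150 and 75 µg/ml 7 were lower, 2 higher and 25 not called. Among all tested genes, the 75 µg/ml comparison with DMSO called 19.4% lower and 19.2% higher. The 150 µg/ml comparison with DMSO called 25.7% lower and 25.8% higher. The step between the concentrations called 12.5% lower and 9.51% higher. Whether the 34 differ from all genes in these shares was not tested. The median log2 fold change of the 34 was -0.15 at 75 µg/ml, -0.19 at 150 µg/ml and -0.05 between them. Total counts gave 7 lower and 9 higher at 75 µg/ml, and 8 lower and 11 higher at 150 µg/ml. Without 75 µg/ml replicate 1, 8 were lower and 2 higher at 75 µg/ml.

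Among 13 other ligands 4 could be tested, and the clearest difference was a loss of BMP5 reads. BMP5 had 15 and 14 reads in DMSO, 3 and 4 at 75 µg/ml, then 0 and 1 at 150 µg/ml. It was lower at 150 µg/ml (adjusted p = 3.89e-04) in every alternative that could test it. Its 75 µg/ml call (adjusted p = 0.0167) was lost without any single library of the groups compared (0.0888 to 0.139). BMP6 had 3.53 and 3.08 CPM in DMSO, 1.59 and 2.04 at 75 µg/ml, then 1.81 and 1.80 at 150 µg/ml. All AF-EAE libraries lay below both DMSO libraries, but its calls at 75 µg/ml (-0.86, adjusted p = 0.0317) and 150 µg/ml (-0.87, adjusted p = 0.0224) were lost with total counts (adjusted p = 0.0618 and 0.0647), and with DESeq2 (0.101 and 0.0799). The 75 µg/ml call was also lost without any single library of DMSO or 75 µg/ml (0.0534 to 0.179), and the 150 µg/ml call without DMSO replicate 1 (0.119), 150 µg/ml replicate 1 (0.0829) or 150 µg/ml replicate 2 (0.0834). GDF7 had 5 and 2 reads in DMSO, 10 and 16 at 75 µg/ml, then 2 and 4 at 150 µg/ml. Its call at 75 µg/ml (adjusted p = 0.0471) was lost with no filter on low counts (0.0841) and when any library was left out (up to 0.323). Its lower level at 150 than at 75 µg/ml (adjusted p = 0.0384) was likewise lost with no filter (0.0517) and when any library was left out (up to 0.291). BMP8B, a near-identical copy of BMP8A, was not called, with -0.49 (adjusted p = 0.0501) at 150 µg/ml, and DESeq2 size factors gave a call there (-0.51, adjusted p = 0.0422).

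Of 9 other receptors and co-receptors 6 could be tested. ENG, which encodes the co-receptor endoglin, fell at each concentration, and an antisense gene covers 7.95% of its exonic bases. It had 121 and 107 CPM in DMSO, 76.9 and 72.9 at 75 µg/ml, then 45.5 and 47.9 at 150 µg/ml, with no overlap between groups. Its log2 fold change was -0.61 (SE 0.069, adjusted p = 2.18e-06) at 75 µg/ml, -1.29 (SE 0.072, adjusted p = 1.16e-10) at 150 µg/ml and -0.68 (adjusted p = 4.19e-06) between 150 and 75 µg/ml. ENG is also an endothelial gene, and the summed endothelial markers PECAM1, CDH5, VWF and KDR ran from 16.3 to 17.7 CPM in DMSO, 13.2 to 16.6 at 75 µg/ml and 10.8 to 10.9 at 150 µg/ml, most of it KDR. KDR was lower at 150 µg/ml (-0.80, adjusted p = 1.55e-04), whereas VWF was higher at 75 µg/ml (1.62, adjusted p = 0.0340). PECAM1, with 5 and 12 reads in DMSO, 15 and 12 at 75 µg/ml, then 25 and 12 at 150 µg/ml, was not called, and CDH5 held at most 0.378 CPM in any library. The part of these markers in the ENG result was not tested. The type I receptor ACVR1 rose at both concentrations, with 0.36 (adjusted p = 0.00492) at 75 µg/ml and 0.54 (SE 0.090, adjusted p = 7.82e-05) at 150 µg/ml. It had 26.2 and 26.1 CPM in DMSO, 34.8 and 32.1 at 75 µg/ml, then 36.7 and 39.2 at 150 µg/ml. Its 75 µg/ml call was lost without 75 µg/ml replicate 1 (adjusted p = 0.0730). The type II receptor ACVR2B was higher at 150 µg/ml (0.45, adjusted p = 0.00120) and not called at 75 µg/ml (0.20, adjusted p = 0.138). Total counts called it higher at 75 µg/ml (0.33, adjusted p = 0.0167) and at 150 against 75 µg/ml (0.31, adjusted p = 0.0314). ACVR2A was not called in any comparison, though total counts called it higher at 150 µg/ml (0.38, adjusted p = 0.0289). RGMB, a co-receptor gene with antisense genes over 45.6% of its exonic bases, was lower at 75 µg/ml (-0.59, adjusted p = 4.96e-05). Its call at 150 µg/ml (-0.29, adjusted p = 0.0102) was lost with total counts (-0.10, adjusted p = 0.347) and without 150 µg/ml replicate 1 (0.0738). Its higher level at 150 than at 75 µg/ml (0.30, adjusted p = 0.0235) was lost when any library of these groups was left out (0.0533 to 0.153).

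Of 15 other antagonists 7 could be tested, of which 3 were lower at 75 µg/ml and 4 lower and 1 higher at 150 µg/ml. The shares over all tested genes were 19.4% lower and 19.2% higher at 75 µg/ml, and 25.7% lower and 25.8% higher at 150 µg/ml. Whether the 7 differ from these shares was not tested. CRIM1, which encodes a membrane protein that binds BMPs through cysteine-rich repeats, had 855 and 824 CPM in DMSO, 361 and 363 at 75 µg/ml, then 227 and 240 at 150 µg/ml. It was 2.32-fold lower at 75 µg/ml (log2 fold change -1.21, SE 0.046, adjusted p = 4.31e-12) and 3.60-fold lower at 150 µg/ml (-1.85, SE 0.047, adjusted p = 1.20e-14). The step of -0.63 between 150 and 75 µg/ml was also called (adjusted p = 8.02e-08). TWSG1, whose secreted product binds BMPs together with chordin, had 148 and 152 CPM in DMSO, 115 and 113 at 75 µg/ml, then 98.4 and 93.5 at 150 µg/ml. Its log2 fold change was -0.40 (adjusted p = 1.95e-05) at 75 µg/ml and -0.64 (adjusted p = 3.14e-08) at 150 µg/ml, and CRIM1 and TWSG1 kept these calls in all 14 alternatives. FST, which encodes the activin-binding follistatin, was lower at 75 µg/ml (-1.08, adjusted p = 0.00782) and at 150 µg/ml (-1.14, adjusted p = 0.00387), and its 75 µg/ml call was lost without 75 µg/ml replicate 1 (adjusted p = 0.0709). The related FSTL3 was higher at 150 µg/ml (0.66, adjusted p = 0.00123). At 75 µg/ml it was not called (0.36, adjusted p = 0.0714), and total counts (0.0157) or leaving out DMSO replicate 1 (0.0112) or 75 µg/ml replicate 2 (0.0189) gave a call. NBL1 was lower at 150 µg/ml (-0.31, adjusted p = 0.00760), a call lost with total counts (-0.13, adjusted p = 0.252) and without DMSO replicate 1 (0.0784), and genes on the same strand cover 17.8% of its exonic bases. CHRD, the gene for chordin, and BAMBI, a decoy receptor gene, were not called at either concentration, though total counts called CHRD higher at 150 µg/ml (1.17, adjusted p = 0.0418).

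All 11 SMADs and SMAD regulators could be tested, and SMAD7 rose at both concentrations. SMAD7, the other inhibitory SMAD, which acts on BMP and TGF-β receptors alike, had 6.56 and 7.86 CPM in DMSO, 22.5 and 22.6 at 75 µg/ml, then 17.0 and 20.1 at 150 µg/ml. All AF-EAE libraries lay above both DMSO libraries. SMAD7 was 3.13-fold higher at 75 µg/ml (1.65, SE 0.137, adjusted p = 6.49e-08) and 2.57-fold higher at 150 µg/ml (1.36, SE 0.139, adjusted p = 2.68e-07), and the difference of -0.28 between the concentrations was not called (adjusted p = 0.112). SMAD6 and SMAD7, which both encode inhibitory SMADs, therefore differed in sign at 150 µg/ml, at -2.09 and 1.36. SMURF2, a ubiquitin ligase gene whose product acts on SMADs and their receptors, had 334 and 322 CPM in DMSO, 231 and 233 at 75 µg/ml, then 185 and 202 at 150 µg/ml. It was lower at 75 µg/ml (-0.50, adjusted p = 5.86e-07) and at 150 µg/ml (-0.76, adjusted p = 1.26e-09). The co-repressor gene SKIL was higher at 75 µg/ml (0.48, adjusted p = 0.00561) and at 150 µg/ml (0.90, adjusted p = 8.21e-06), and its 75 µg/ml call was lost without DMSO replicate 2 (adjusted p = 0.0658) and without 75 µg/ml replicate 1 (0.0771). Its relative SKI was lower by a small amount at 75 µg/ml (-0.20, adjusted p = 0.0160) and 150 µg/ml (-0.25, adjusted p = 0.00254), and total counts ended both calls (-0.08 and -0.07). Without DMSO replicate 1 the 75 µg/ml call of SKI stood at an adjusted p of 0.0505, and without 75 µg/ml replicate 1 at 0.107. SMAD5 was called lower at 75 µg/ml (-0.19, adjusted p = 0.0143) but not with total counts (-0.06), without DMSO replicate 2 (adjusted p = 0.0911) or without 75 µg/ml replicate 1 (0.118). LEMD3, an inner nuclear membrane protein gene, was called lower at 150 µg/ml (-0.20, adjusted p = 0.0357) and lost the call in 6 of 14 alternatives, among them without DMSO replicate 2 (0.187), 150 µg/ml replicate 1 (0.155) and 150 µg/ml replicate 2 (0.0611). SMAD1, SMAD4, SMAD9, SMURF1 and PPM1A were not called in any comparison. Without DMSO replicate 1 SMAD4 was called lower at 75 µg/ml (-0.34, adjusted p = 0.0268) and SMAD1 at 150 µg/ml (-0.51, adjusted p = 0.0424). With total counts PPM1A was called higher at 75 and 150 µg/ml and SMURF1 at 150 µg/ml. A stricter filter (5 CPM in 2 libraries) with TMM also called PPM1A higher at 150 µg/ml (0.17, edgeR adjusted p = 0.0127).

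Of 10 other target genes 4 could be tested, and their calls went in both directions. MSX2, a homeobox gene, had 6.11 and 4.98 CPM in DMSO, 13.9 and 12.7 at 75 µg/ml, then 10.2 and 9.98 at 150 µg/ml. It was 2.39-fold higher at 75 µg/ml (1.26, SE 0.158, adjusted p = 6.55e-06) and 1.82-fold higher at 150 µg/ml (0.86, SE 0.161, adjusted p = 2.35e-04). HEY1, which encodes a bHLH repressor, had 8 and 10 reads in DMSO, 34 and 22 at 75 µg/ml, then 32 and 38 at 150 µg/ml, and was higher at 75 µg/ml (1.54, adjusted p = 0.0101) and 150 µg/ml (1.83, adjusted p = 0.00172). Its 75 µg/ml call was lost without DMSO replicate 1 (adjusted p = 0.0675) and without 75 µg/ml replicate 1 (0.124). GATA2, a zinc finger factor gene, had 24.5 and 22.2 CPM in DMSO, 18.8 and 16.6 at 75 µg/ml, then 11.2 and 10.4 at 150 µg/ml. It was lower at 150 µg/ml than in DMSO (-1.12, SE 0.122, adjusted p = 6.47e-07) and than at 75 µg/ml (-0.71, adjusted p = 5.27e-04). The 75 µg/ml call of GATA2 (-0.40, adjusted p = 0.0111) was lost with total counts (0.0695), without DMSO replicate 1 (0.0936) and without 75 µg/ml replicate 2 (0.113). ID4 had 2 reads in all libraries together.

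Of 3 genes for E proteins that ID proteins bind, 2 could be tested and both were called lower. Of all tested genes 19.4% were lower at 75 µg/ml and 25.7% at 150 µg/ml. TCF3 had a log2 fold change of -0.21 (adjusted p = 0.0126) at 75 µg/ml and -0.47 (SE 0.064, adjusted p = 9.34e-06) at 150 µg/ml. The 150 µg/ml call held in all 14 alternatives, and the 75 µg/ml call was lost with total counts (-0.09, adjusted p = 0.288), without DMSO replicate 1 (0.0823) and without 75 µg/ml replicate 2 (0.203). TCF12 was called lower at 75 µg/ml (-0.27, adjusted p = 0.00482) and at 150 µg/ml (-0.18, adjusted p = 0.0332), but total counts gave -0.14 and 0.01 with neither called. The stricter filter ended the 150 µg/ml call too (-0.14, edgeR adjusted p = 0.0770). Without DMSO replicate 1 and without 150 µg/ml replicate 1 the 150 µg/ml call of TCF12 was lost as well (adjusted p = 0.155 and 0.373). TCF4 had 0 reads in every library.

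**Figure D4:**
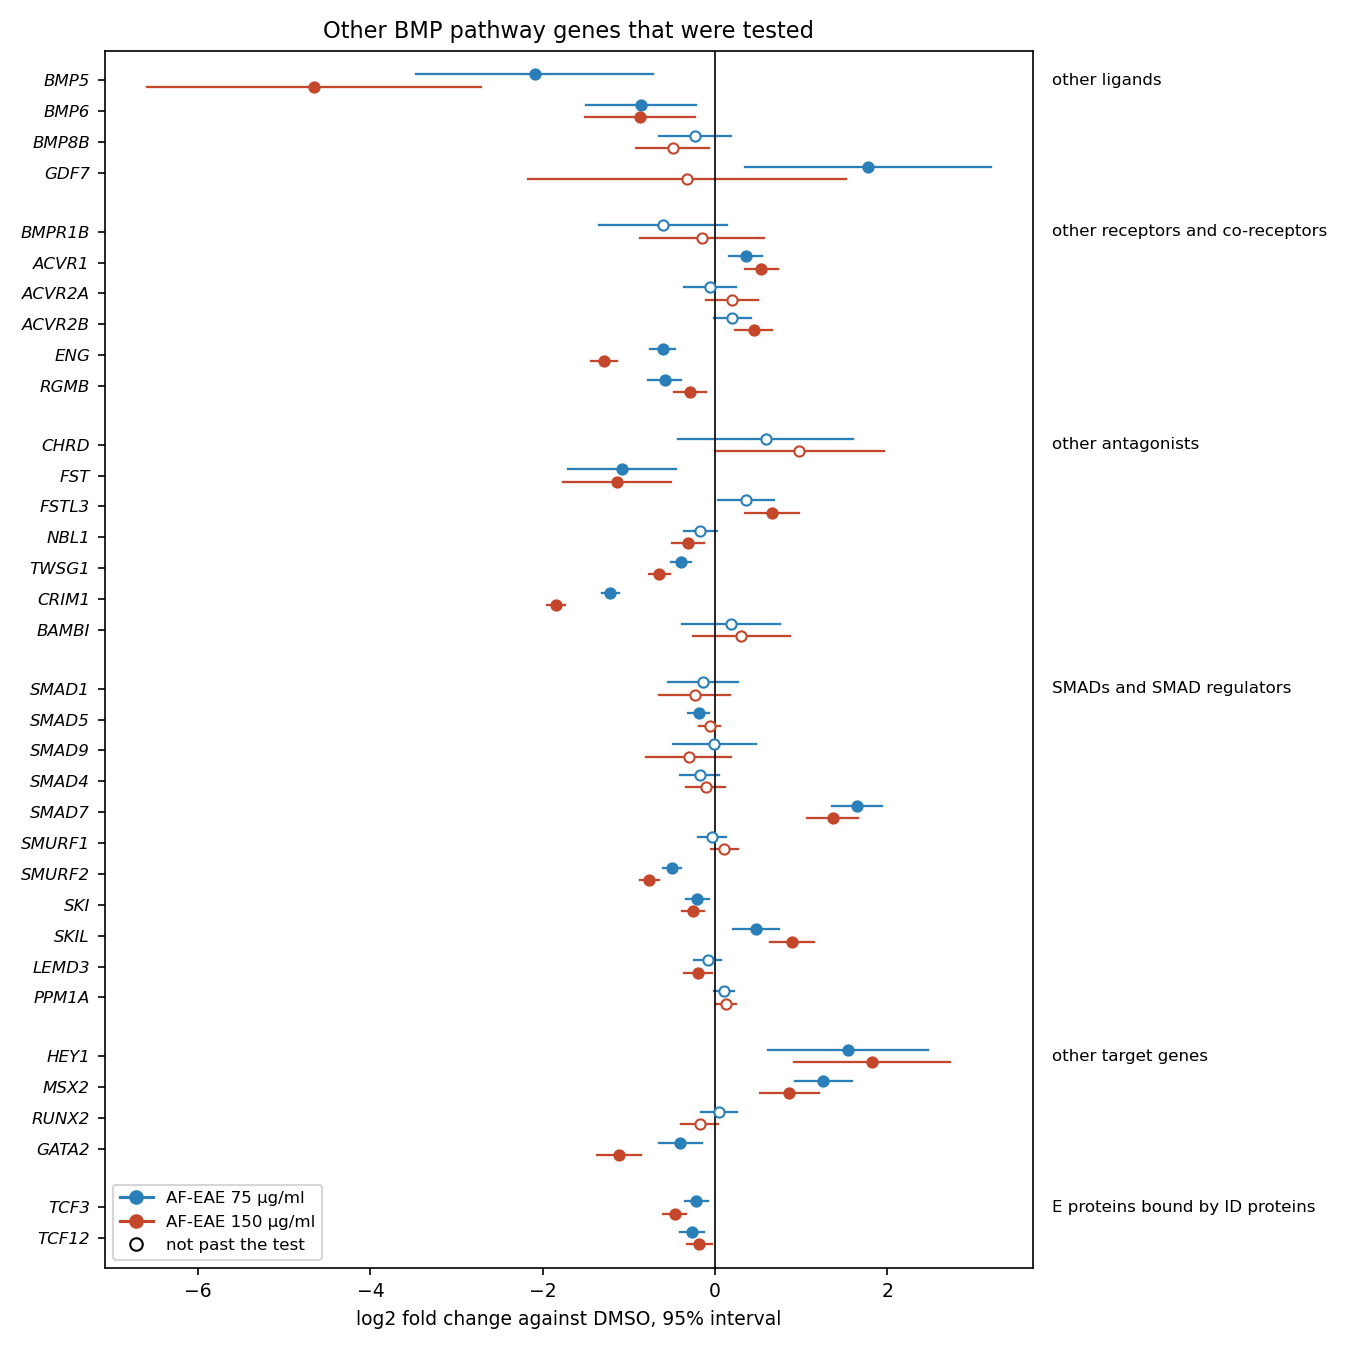
Log2 fold changes against DMSO with 95% intervals (x axis) for the 34 other tested pathway genes (y axis, grouped by list), at 75 and 150 µg/ml AF-EAE, with filled points past an adjusted p of 0.05. SMAD7, HEY1 and MSX2 lie right of 0 at both concentrations, CRIM1 and ENG left of it, and the BMP5 value at 150 µg/ml rests on 0 and 1 reads and gives no size.

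By the distance of centred log2 CPM over the 6 libraries, the genes most like NOG among 10720 genes with a mean of 5 CPM or more were HSPG2, which encodes perlecan, and the mitochondrial MT-CO3. Their root mean square distances were 0.151 and 0.255 on the log2 scale. HSPG2 had 228 and 216 CPM in DMSO, 93.0 and 96.1 at 75 µg/ml, then 32.7 and 38.9 at 150 µg/ml. The genes most like ID1 were DENND2A (0.125) and ENSG00000227706 (0.126), whose level also held at 75 µg/ml, with log2 fold changes of -0.13 and -0.01 there and -1.23 and -1.18 at 150 µg/ml. ID3 was nearest to SAPCD2 (0.0866) and GTSE1 (0.0995), and ID2 to SERTAD1 (0.197) and WASHC1 (0.213), the last from a family with near-identical copies. These distances describe 6 libraries in 3 groups and carry no test.

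Mesenchymal markers were high in all libraries, while no other line or reference profile was compared. Libraries of a group correlated at 0.990 to 0.991 over log2 CPM, and counts differed beyond sampling noise (chi-square per degree of freedom 2.78 to 3.53), so that none was a copy. The mesenchymal markers VIM, CD44, AXL, CAV1 and MSN summed to 4469 to 4601 CPM in DMSO, 3292 to 3352 at 75 µg/ml and 2572 to 2634 at 150 µg/ml. Of the 9 luminal markers CDH1, PGR and FOXA1 held at most 4 reads in a library, and the sum, which is mainly KRT8, KRT18 and ERBB2, was 811 to 823, 582 to 594 and 479 to 490 CPM in the same order. The 5 fibroblast markers summed to 6.81 to 9.10, 10.1 to 10.4 and 9.31 to 10.8 CPM, nearly all COL1A1, with DCN at 0. The luminal markers went in both directions. KRT8 was lower at 75 and 150 µg/ml (-0.57 and -0.87), as was KRT18 (-0.66 and -0.91). GATA3 was lower at 150 µg/ml (-0.90, adjusted p = 2.20e-04), and EPCAM was not called in any comparison. ESR1, with 2 reads in each DMSO library, was higher at 75 µg/ml (15 and 13 reads, adjusted p = 0.00563) and at 150 µg/ml (13 and 9 reads, adjusted p = 0.0136). ERBB2 was higher at 75 µg/ml (0.20, adjusted p = 0.0139) and not called at 150 µg/ml against DMSO (-0.02). It was lower at 150 than at 75 µg/ml (-0.22, adjusted p = 0.0156). Of the leukocyte markers PTPRC and CD3E were at 0 in every library, LYZ had 3 reads in all, and CD14 had 2 to 7 reads per library, at most 0.428 CPM. The part of these shifts in the BMP pathway results was not tested.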

How the data were processed

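RNA was measured in 6 libraries of MDA-MB-231 cells. The authors deposited whole-number gene counts that had not been normalized. Each library has its own file of 60651 genes, and 5 further lines are summaries that were kept out of depths and tests. HISAT2 2.2.1, HTSeq 2.0.2 and hg38 are named per the submitters' processing notes. Counting options, strand setting and annotation release are not stated there. Of the total over gene and summary lines, reads shared between overlapping genes made up 10.95% to 11.48% and reads outside genes 6.32% to 7.98%.

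Symbols were matched for 60481 rows, which hold 99.95% of gene counts. Coordinates and exon lengths are those of GENCODE 29 on GRCh38. Tests used edgeR 4.0.16 under R 4.3.3 (TMM, default filter on low counts by group, quasi-likelihood F-test, Benjamini-Hochberg at 0.05) in a fit of all 6 libraries with a mean per group, which left 15589 genes tested and 45062 removed. The biological coefficient of variation was 5.08%. SEs were derived from the F statistics, and 95% intervals from the t distribution of the fit. Steps were tested on simulated data.

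Alternatives were DESeq2 1.42.0, limma-voom (limma 3.58.1), other scalings, no filter and a stricter filter (5 CPM in 2 libraries), a fit of only 2 groups, a replicate block, and each library left out. The named genes are the 10 listed, further pathway genes called in at least 1 comparison, and the 2 genes most like NOG, ID1, ID2 and ID3. Pathway genes named as not called, and the marker genes, were added beside them. A result on 1 leukocyte marker is not reported here. Members, lists and rules were chosen with earlier results of these data known.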

Additional observations from a re-analysis of the deposited data

How the results depend on the processing

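Of 328 alternative values of the 8 tested listed genes, 306 kept direction and call. For BMPR2 at 75 µg/ml the sign turned to 0.12 with total counts, 0.020 with the stricter filter, 0.0019 with limma-voom, and ran from -0.10 to 0.10 on leaving out a library (above 0 without DMSO replicate 2 or 75 µg/ml replicate 1). SMAD6 at 75 µg/ml ran from -0.73 to 0.37 on leaving out a library, with 0.37 without DMSO replicate 2. BMPR1A at 150 µg/ml turned to 0.053 with total counts. Total counts called 1 listed gene higher at each concentration against DMSO.

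Leaving out a library gave 4 to 7 listed genes lower between 150 and 75 µg/ml, with 4 without 75 µg/ml replicate 1, and 5 to 6 lower at 150 µg/ml against DMSO. Over all genes between 150 and 75 µg/ml it gave 915 to 2105 lower and 592 to 1612 higher, and DESeq2 gave 980 higher. Total counts gave 1816 lower and 4501 higher over all genes at 75 µg/ml and 2542 lower at 150 µg/ml.

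Of the other pathway genes, total counts called 7 lower at 75 µg/ml, 8 lower and 11 higher at 150 µg/ml, and 4 higher between 150 and 75 µg/ml. The stricter filter called 9 lower at 150 µg/ml and tested fewer genes, SMAD6 and ID2 not among them. DESeq2 called 1 higher between 150 and 75 µg/ml. Leaving out a library gave 8 to 15 lower and 2 to 6 higher at 75 µg/ml, and 0 to 2 higher between the concentrations. The longest transcript in place of all exons gave 21.3, 0.249 and 14.4 CPM per kilobase for BMP4, SMAD6 and ID3 in DMSO. Where no cause is named, the cause was not tested.

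Deviations of same-numbered libraries from their group means correlated at 0.059, 0.041 and 0.004 over 15589 genes. These low values cannot settle whether the replicate numbers pair the libraries. With the replicate block 2, 6 and 7 listed genes were lower and 0 higher at 75 µg/ml, at 150 µg/ml and between them, and 13, 14 and 7 other pathway genes were lower and 6, 7 and 2 higher. With the block GDF7 lost its 75 µg/ml call (adjusted p = 0.0528) and FSTL3 gained one (0.0306). Leaving out a library leaves a group with 1 library, which is then assumed to vary like the others. Differences of SMAD6, ID2, BMP5 and GDF7 rest on few reads and are limited by depth.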
